A study of Rattus norvegicus with 16 samples.

Results

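The duration of the study was compared in the hippocampus of aged rats, with 4 arrays from rats killed after 12 weeks and 4 arrays from rats killed after 6 weeks, chosen by tissue and time point among the 16 arrays of the series. The rats were male Sprague-Dawley rats, aged 15 months at the start, and neither duration is a zero time point. At each duration 2 arrays came from rats fed curcumin, a polyphenol of turmeric, in the chow and 2 from rats fed control chow. Each array was hybridised with RNA pooled from 3 rats. The labels name no transgene or deletion. According to the study's methods, rats of both durations and both diets went through behavioural tests in the last weeks and were injected with BrdU, a label of dividing cells. The methods describe the rats of the arrays as decapitated, and do not state whether they were among the tested and injected rats. The 12-week rats were older at death by the difference in duration. Duration, age at death and any difference in dissection, extraction or array processing between the durations cannot be told apart, because each array belongs to a single duration. Both arrays of a group are biological replicates by their labels, yet the study's methods mention that RNA samples were run in duplicate. The p-values then measure the spread between these arrays, which may be technical. Each value is a log2 expression level of a transcript cluster, a group of probes that reads out a gene, and a shift is the mean log2 value at 12 weeks minus that at 6 weeks, with diet as a block in limma.

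The hippocampus stores new memories of places and events. Its pyramidal and granule neurons release glutamate, its interneurons release GABA and often a neuropeptide, and the dentate gyrus goes on making new granule cells in adult rodents. Neurons draw most of their energy from the mitochondrial respiratory chain, in which complexes I to IV pass on electrons and the ATP synthase makes ATP. In ageing rodents, expression of mitochondrial, synaptic and glial genes has often been examined, which is why lists of these genes were set beside each other here. Of 5 genes set against the tissue label, the lowest hippocampal array lay above the highest cortical array for 3, Prox1 and C1ql2 of dentate granule cells (means of 7.77 and 8.17 in the hippocampus, against 6.20 and 6.32 in the cortex) and Fibcd1 (7.08 and 6.15). The tissues overlapped for Wfs1 of CA1, with a hippocampal low of 8.79 and a cortical high of 9.77. They also overlapped for Fezf2, a gene of deep cortical layers, which averaged 8.27 in the hippocampus and 7.78 in the cortex.

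The hippocampal arrays were set apart by duration. The first principal component held 41.4% of the variance, and the 12-week arrays lay between 11.4 and 15.6 on it, against -16.5 to -12.3 for the 6-week arrays. Of 27342 clusters, 1914 were higher at 12 weeks (7.00%) and 1442 were lower (5.27%) at an adjusted p under 0.05. Counted once per gene, with the brightest cluster standing for the gene, 979 of 14324 genes were higher (6.83%) and 853 were lower (5.96%). All 4 arrays of 12 weeks lay above all 4 arrays of 6 weeks for 1482 genes (10.3%) and below them for 1352 genes (9.44%). The shifts were small: the median size of a called shift was 0.30, and 3172 of the 3356 called clusters shifted by less than 1.5-fold. With any single array of 6 weeks left out the counts were lower, at 1151 and 658 (curcumin replicate 1), 1127 and 823 (curcumin replicate 2), 1156 and 821 (control replicate 1) and 995 and 600 (control replicate 2). Arrays of a group correlated at 0.992 to 0.996, and the array medians ran from 6.36 to 6.44.

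A pair of the 6-week arrays had the highest values of the 8 hippocampal arrays in genes of the choroid plexus, the tissue that makes cerebrospinal fluid and lies against the hippocampus in the ventricle. Ttr (transthyretin), the defining marker, read 7.77 and 6.32 on the curcumin arrays and 6.42 and 6.85 on the control arrays of 12 weeks, against 6.04 and 11.96 on the curcumin arrays and 9.59 and 12.19 on the control arrays of 6 weeks. Kcnj13, a potassium channel of the same epithelium, lay between 5.11 and 5.19 at 12 weeks, against 5.42, 7.87, 5.66 and 8.50 at 6 weeks. Kl, which encodes the anti-ageing protein klotho, lay between 5.70 and 5.99 at 12 weeks, against 6.08, 8.45, 6.34 and 9.09 at 6 weeks. Replicate 2 of both diets at 6 weeks thus carried the highest values, and no 12-week array reached them. Control replicate 1 of 6 weeks lay lower, but above every 12-week array for Ttr, Kl and Kcnj13. Its mean over the list was 6.21, against at most 5.91 at 12 weeks. All 19 measured genes of the list had negative shifts and none passed the test in limma, with 6 at an unadjusted p under 0.05. Without curcumin replicate 1 of 6 weeks 2 of them were called lower, and without control replicate 1 of 6 weeks 1 was. Their median shift was -0.73, and the shift of Ttr was -3.10 (SE 1.21, adjusted p = 0.143). The mean over the list ran from 5.82 to 5.91 at 12 weeks, against 5.74 to 7.72 at 6 weeks. Meningeal genes also had mostly negative shifts, 13 of 16, with none called (3 at an unadjusted p under 0.05, and 1 called without control replicate 1 of 6 weeks). Slc13a4, a sulphate transporter, had the largest of these at -0.92 (SE 0.28, adjusted p = 0.0682). In a bulk sample, more cells of a type and more RNA per cell cannot be told apart.

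**Figure D1:**
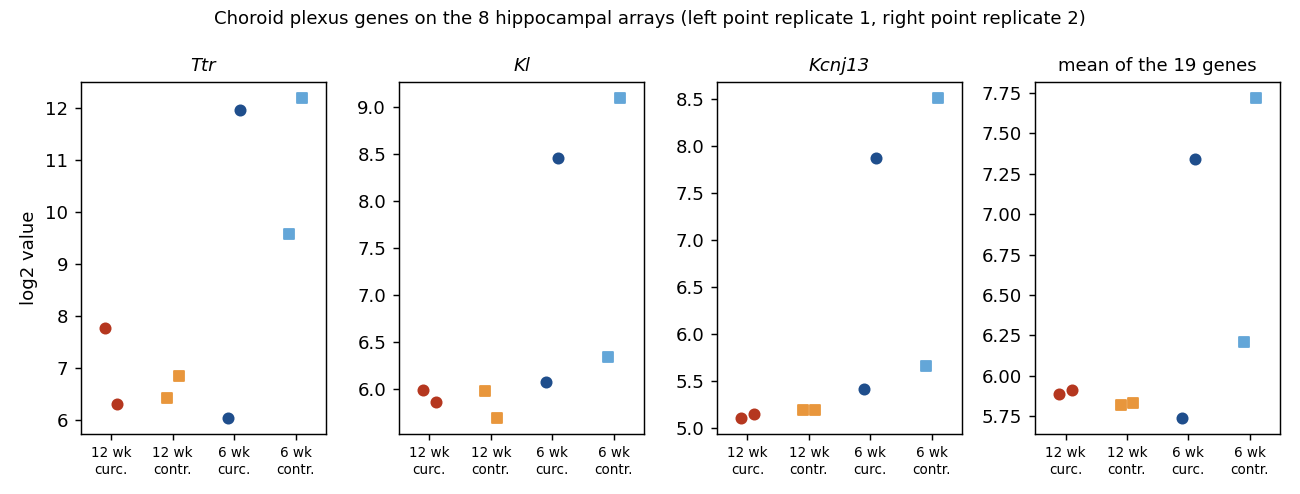
Log2 values of the choroid plexus genes Ttr, Kl and Kcnj13 and the mean of the 19 genes of the list on each hippocampal array, 12 weeks left of 6 weeks, with each point an array. Replicate 2 of both diets at 6 weeks carries high values of Kl and Kcnj13 (7.87 to 9.09), while the 12-week arrays stay at 5.99 or below for these genes.

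Since the replicate 2 arrays of 6 weeks also enter every other count, the fit was repeated without them, an alternative chosen after the values were seen. Without replicate 2 of both diets at 6 weeks, 132 clusters were higher and 27 lower. That fit has 6 arrays and 3 residual degrees of freedom. A fit of the same size without replicate 1 of both diets at 6 weeks called 249 higher and 129 lower. The clusters called higher on all 8 arrays had a median shift of 0.31 in either case, and those called lower had a median shift of -0.29 without the replicate 2 arrays and -0.28 with them. These clusters were chosen on arrays that are measured again here, so the medians cannot show whether the shifts depend on the replicate 2 arrays. The median of the choroid plexus list was -0.04 without the replicate 2 arrays. Ttr still had a shift of -0.98 there, with control replicate 1 of 6 weeks kept. Without the replicate 1 arrays 15 of the 19 choroid plexus genes and 2 meningeal genes were called lower. Of the genes named here, 87 were called on all 8 arrays, and 17 of them were called without the replicate 2 arrays and 28 without the replicate 1 arrays. The gene lists described below lost most of their calls in both fits. Without the replicate 2 arrays, calls were left for 2 proteasome genes, 1 histone gene and the somatostatin gene Sst, all higher. Sst is on both the interneuron and the neuropeptide list.

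The largest called increases included genes of energy metabolism, chromatin and protein production. The plot of the named genes by array shows the 12 largest called shifts in each direction among genes with 1 symbol whose groups did not overlap. Ccdc107 (chromosome 5, 62545273 to 62548711 in the RefSeq annotation of GRCr8) read 9.26, 9.38, 8.94 and 9.23 at 12 weeks, against 8.39, 8.47, 8.05 and 8.28 at 6 weeks, each with the curcumin arrays first. Its shift of 0.90 (SE 0.08, adjusted p = 0.00125) was the largest of these, a 1.87-fold increase. Ndufa3 (chromosome 1, 74512928 to 74515558), a subunit of complex I, read 8.51, 8.60, 8.63 and 8.59 at 12 weeks, against 7.72, 7.89, 7.52 and 7.78 at 6 weeks. It rose by 0.86 (SE 0.08, adjusted p = 0.00125). Ndufb6, another subunit of complex I, averaged 8.65 ± 0.19 at 12 weeks and 7.86 ± 0.08 at 6 weeks (SD, n = 4 arrays each; adjusted p = 0.00169 by limma). Cox8a, a subunit of cytochrome c oxidase, averaged 10.62 ± 0.10 and 9.90 ± 0.11 in the same order (adjusted p = 0.00125 by limma, n = 4 arrays each). All 4 of these genes kept their calls when any of the 8 arrays was left out.

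Histone genes were also among the 12. Hist2h3c2, which encodes histone H3, read 9.17, 9.17, 9.11 and 9.14 at 12 weeks, against 8.43, 8.56, 8.26 and 8.17 at 6 weeks. Its shift was 0.79 (SE 0.06, adjusted p = 0.00115), and H4c14, a histone H4 gene, rose by 0.75 (SE 0.06, adjusted p = 0.00125). The 12-week arrays of both histone genes lay close together and clear of the 6-week arrays. The remaining 6 were Dad1, a subunit of the enzyme that attaches sugars to proteins (0.79), the tubulin gene Tuba1a (0.79), the ribosomal protein gene Rpl39 (0.74), the proton pump subunit Atp6v0e2 (0.74), Tmem179 (0.71) and the interferon-inducible Ifi27 (0.70). Their adjusted p ran from 0.000681 for Atp6v0e2 to 0.00565 for Ifi27. Rpl39 has 6 other clusters, all called, with shifts from 0.70 to 0.74, and processed copies of ribosomal genes may share their probes. Histone genes also resemble each other closely in sequence, so these values are uncertain as to the gene.

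**Figure D2:**
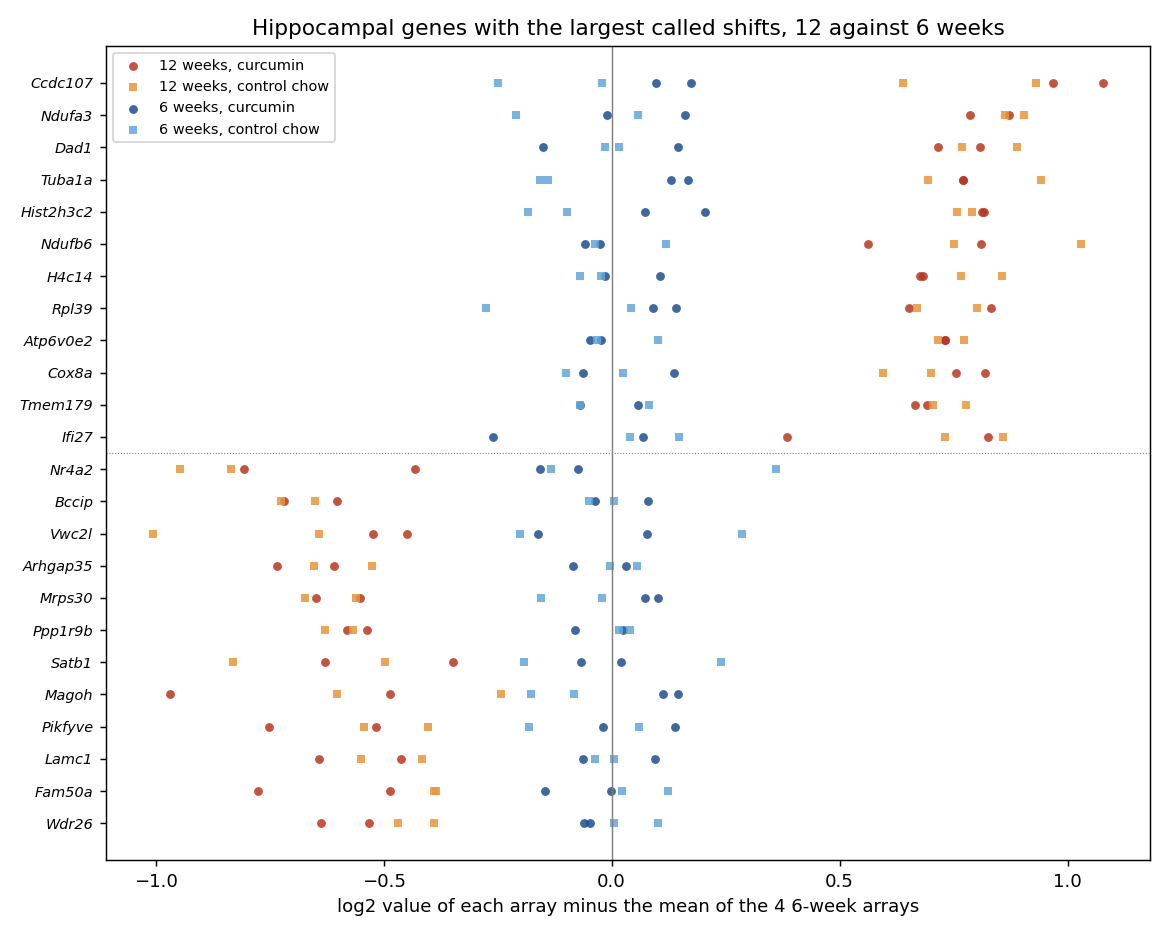
Log2 value of each hippocampal array minus the mean of the 4 6-week arrays of that gene, for the 12 genes with the largest called increases (top) and the 12 with the largest called decreases (bottom), with circles for curcumin and squares for control chow. The 12-week points of Ccdc107 and Ndufa3 lie clear of the 6-week points on the right, and those of Bccip on the left, while for Magoh the groups lie close together (6.92 at the nearest 12-week array, against 6.99 at the nearest 6-week array).

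The largest called decreases included regulatory and structural genes. Nr4a2 (Nurr1; chromosome 3, 62098739 to 62115926), a nuclear receptor that neuronal activity induces, read 8.19, 8.57, 8.16 and 8.05 at 12 weeks, against 8.84, 8.92, 9.36 and 8.86 at 6 weeks. It fell by 0.75 (SE 0.14, adjusted p = 0.0135), which is 1.69-fold. The highest 6-week value, 9.36 on control replicate 1, stood apart from the other 3. Bccip, which binds the DNA repair protein BRCA2, read 7.14, 7.25, 7.13 and 7.21 at 12 weeks, against 7.94, 7.82, 7.86 and 7.81 at 6 weeks, with a shift of -0.67 (SE 0.05, adjusted p = 0.000855). Ppp1r9b, which encodes spinophilin, a scaffold of dendritic spines, averaged 10.12 ± 0.04 at 12 weeks and 10.70 ± 0.05 at 6 weeks (SD, n = 4 arrays each; adjusted p = 0.00125 by limma). Arhgap35 fell by 0.63 (SE 0.05, adjusted p = 0.00125). The groups were far apart for Bccip, Ppp1r9b and Arhgap35, and nearer for Nr4a2.

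The others of the 12 were Vwc2l (-0.65), the mitochondrial ribosome gene Mrps30 (-0.61), the chromatin organiser Satb1 (-0.58), the exon junction protein Magoh (-0.57), the lipid kinase Pikfyve (-0.55), the laminin chain Lamc1 (-0.52), Fam50a (-0.51) and the ubiquitin ligase subunit Wdr26 (-0.51). Their adjusted p ran from 0.00125 for Wdr26 to 0.0395 for Magoh. A second, dimmer cluster of Fam50a had a shift of 0.01. Vwc2l and Satb1 lost their calls without curcumin replicate 1 of 6 weeks (adjusted p = 0.0589 and 0.0522). Magoh lost its call without any of the 4 arrays of 6 weeks and without replicate 1 of either diet at 12 weeks, with adjusted p up to 0.113.

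The direction of the calls went with the length of the annotated gene, from its first to its last base including introns, known for 14298 genes, which were cut into 5 bins of equal size by length. Genes called higher had a median span of 10.5 kb and genes called lower one of 56.6 kb, against 18.0 kb over all genes. In the shortest bin, up to 4479 bases, 227 of 2860 genes were higher (7.94%) and 24 were lower (0.839%). In the longest bin, from 59093 bases, 77 of 2860 were higher (2.69%) and 418 were lower (14.6%). The second bin held the highest share of increases, 10.8%. Median shifts were 0.02, 0.04, 0.02, -0.01 and -0.06 from the shortest to the longest bin, and the cortical medians were -0.01, -0.00, -0.01, -0.03 and -0.06. The bins also differed in brightness, with median levels of 5.50 in the shortest and 7.66 in the longest. Leaving out single arrays moved the 418 decreases to between 173 (without control replicate 2 of 6 weeks) and 425, with 181 without curcumin replicate 1 of 6 weeks, 269 without its replicate 2 and 262 without control replicate 1 of 6 weeks. The count was 277 without curcumin replicate 2 of 12 weeks and 270 without control replicate 1 of 12 weeks. The 227 increases moved to 144 without curcumin replicate 1 and to 147 without control replicate 2 of 6 weeks. The smaller counts, 24 and 77, moved to between 11 and 14 and to between 31 and 38 without any single 6-week array, and the 77 to 45 without curcumin replicate 1 of 12 weeks. Outside the single-array fits, the 77 were 43 in a fit of all 16 arrays and the 24 were 38 after quantile normalization. Without the replicate 2 arrays of 6 weeks, 27 genes of the shortest bin were higher and 1 lower, and 2 of the longest were higher and 6 lower. Without the replicate 1 arrays these counts were 42 and 3, and 5 and 31. In each of these fits lower calls were more frequent than higher calls in the longest bin and less frequent in the shortest. The part of brightness in this relation to length was not tested.

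**Figure D3:**
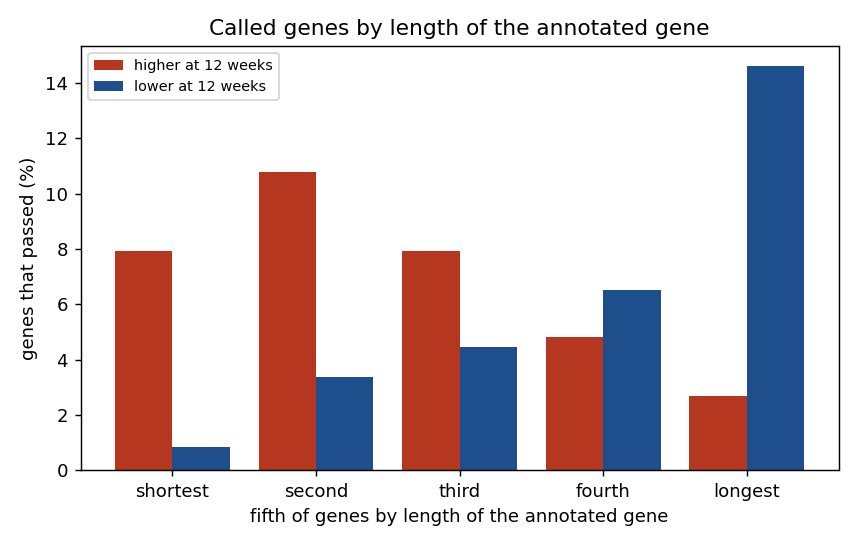
Share of genes called higher and lower at 12 weeks, in percent, in each of 5 equal bins of 14298 genes ordered by the length of the annotated gene. Lower calls make up 0.839% of the shortest bin and 14.6% of the longest, and higher calls are most frequent in the second bin (10.8%).

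Genes of the respiratory chain leaned higher at 12 weeks, with 24 of 31 shifts positive. Of these 31 measured genes, 11 were higher (35.5%), against 6.83% of all genes, and 1 was lower (3.23%, against 5.96%), Ndufc2 at -0.24. The median shift was 0.15, against 0.01 over all genes. Ndufb8, a subunit of complex I, read 8.61, 8.56, 8.48 and 8.70 at 12 weeks, against 8.06, 8.16, 8.08 and 8.16 at 6 weeks. Its shift was 0.47 (SE 0.06, adjusted p = 0.0029). Cox5a of cytochrome c oxidase rose by 0.44 (SE 0.07), Ndufv1, which holds the NADH binding site of complex I, by 0.33 (SE 0.04) and Ndufs4 of the same complex by 0.33 (SE 0.05). Increases were spread over complex I, succinate dehydrogenase (Sdha 0.23, Sdhb 0.17), the cytochrome bc1 complex (Uqcrc1 0.23), cytochrome c oxidase and the ATP synthase (Atp5po 0.24). The count of 11 was 6 without curcumin replicate 1 of 6 weeks, 7 without control replicate 1 of 6 weeks and 7 without curcumin replicate 1 of 12 weeks. The list's median in the cortex was 0.16. The genes of this list are short, with a median span of 11.3 kb.

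Promoters of such genes can hold the site of nuclear respiratory factor 1 (NRF1). The stretches below are of 3 genes that kept their increases whichever single array was left out, and were picked because they hold a motif. Other genes of the chain that kept their increases, among them Ndufa3 and Cox5a, are not shown. Ndufb6 and Cox8a are not members of the list of 31 genes. Each runs 5′ to 3′ on the gene's strand, taken from RefSeq promoters of GRCr8 (250 bases before to 50 bases after the annotated start). Capitals mark the motif searched on both strands, which is TGCGCATG, the core of the NRF1 site, in Ndufb6 (chr5:60206194-60206281, minus strand) and Ndufb8 (chr1:253362901-253362988, minus strand), and TGACGTCA, the cyclic AMP response element (CRE), in Cox8a (chr1:213833652-213833739, minus strand).
Ndufb6: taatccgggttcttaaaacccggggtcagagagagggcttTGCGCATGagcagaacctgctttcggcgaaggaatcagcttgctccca
Ndufb8: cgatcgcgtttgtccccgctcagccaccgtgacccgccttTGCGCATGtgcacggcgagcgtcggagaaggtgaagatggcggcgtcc
Cox8a: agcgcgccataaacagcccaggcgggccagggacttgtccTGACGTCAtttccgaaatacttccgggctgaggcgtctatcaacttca
Promoters were in the table for 29 of the 31 genes of the list, and 2 of the 29 held TGCGCATG, Ndufb8 and Uqcrc1, both called higher. Of all 33469 promoters, 2.11% held it, and 1.83% held TGACGTCA. The NRF1 motif was chosen after the values were seen, and a match is a description of the sequence only.

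Subunits of the ribosome and of the proteasome were called in both directions. Both lists hold bright genes, with averages of at least 8.78 on each 12-week array. The same holds for the lists of the respiratory chain, splicing, chaperones, vesicle release, postsynaptic genes and astrocytes. The shares of all genes beside these lists are not matched for brightness, and the part of brightness was not tested. Of 33 ribosomal protein genes, 9 were higher (27.3%, against 6.83% of all genes) and 4 were lower (12.1%, against 5.96%), with a median shift of 0.07. Rpl10a rose by 0.46 (SE 0.05, adjusted p = 0.00178), and its values of 8.54 to 8.72 at 12 weeks lay above those of 8.16 to 8.22 at 6 weeks. Rps15 rose by 0.42 (SE 0.05), Rps16 by 0.39 (SE 0.06) and Rps19 by 0.50 (SE 0.08), while Rpl35, Rpl5, Rpl4 and Rpl30 fell by 0.27, 0.23, 0.21 and 0.20. The other clusters of Rpl4 and Rpl5 had positive shifts of 0.04 to 0.31. The 4 decreases became 1 without any of the 4 arrays of 6 weeks or without curcumin replicate 1 of 12 weeks, and 2 without control replicate 1 of 12 weeks, while quantile normalization gave 7.

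The proteasome, which degrades proteins tagged with ubiquitin, had 4 of 25 genes higher (16%, against 6.83% of all genes) and 5 lower (20%, against 5.96%), with a median of -0.03. Psmb5, the catalytic subunit with chymotrypsin-like activity, read 9.14, 9.14, 9.18 and 9.21 at 12 weeks, against 8.44, 8.49, 8.49 and 8.53 at 6 weeks. It rose by 0.68 (SE 0.04, adjusted p = 0.000681). Psmb4 rose by 0.53 (SE 0.05) and Psmb6, another catalytic subunit, by 0.40, while Psmb7, the third catalytic subunit, fell by 0.28 (adjusted p = 0.00578). These 4 genes kept their calls whichever single array was left out. The 5 decreases became 2 without replicate 2 of either diet at 6 weeks and 3 without replicate 1 of either diet at 6 or 12 weeks, while quantile normalization gave 9. Psmb5 had shifts of 0.67 on curcumin and 0.68 on control chow, and Psmb7 had shifts of -0.33 and -0.24, so the catalytic subunits went in opposite directions on both diets.

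Splicing factors leaned the other way. Of 25 genes, 6 were lower (24%), against 5.96% of all genes, and 2 were higher (8%, near the 6.83% of all genes). Hnrnpa1, an abundant RNA-binding protein, lay between 10.55 and 10.62 at 12 weeks, against 10.88 to 10.93 at 6 weeks, and fell by 0.31 (SE 0.04, adjusted p = 0.00286). Sf3b2 of the U2 particle fell by 0.37 (SE 0.05) and Hnrnph1 by 0.36, and Hnrnpa2b1 fell by 0.22. The call of Hnrnpa2b1 was lost without curcumin replicate 1 of 6 weeks (adjusted p = 0.0516), without which 3 genes of the list were lower, and a dimmer cluster of it had a shift of 0.05. The 2 increases were lost without either curcumin array or control replicate 2 of 6 weeks and were 1 without either curcumin array or control replicate 2 of 12 weeks. The list of histone genes had 3 of 9 genes higher (33.3%, against 6.83% of all genes), H4c14, Hist1h2an (0.36) and H2az1 (0.25). H2az1 lost its call without any array other than curcumin replicate 2 of 12 weeks (adjusted p up to 0.0873).

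Enzymes against oxidative stress were called higher more often than lower. The list holds targets of Nrf2, the transcription factor that answers oxidants, along with other antioxidant enzymes, and 8 of its 23 genes were higher (34.8%, against 6.83% of all genes) and 2 were lower (8.70%, against 5.96%). Cat (catalase), which breaks down hydrogen peroxide, read 8.67, 8.55, 8.57 and 8.71 at 12 weeks, against 7.95, 8.03, 8.19 and 8.03 at 6 weeks. Its shift was 0.58 (SE 0.06, adjusted p = 0.00164). Prdx6, a peroxiredoxin, read 8.82, 8.91, 8.99 and 9.17 at 12 weeks, against 8.39, 8.39, 8.34 and 8.44 at 6 weeks, and rose by 0.59 (SE 0.07, adjusted p = 0.0023). Gstp1, a glutathione transferase, rose by 0.49 (SE 0.07) and Sod1, which converts superoxide, by 0.27 (SE 0.04). These 4 were called whichever single array was left out. Gsr, which regenerates glutathione, and Prdx1 fell by 0.23 and 0.26, and neither decrease was called without any of the 4 arrays of 6 weeks. Only 1 of them was called without either curcumin array or control replicate 1 of 12 weeks. The shift of Cat was 0.62 on curcumin chow and 0.53 on control chow (SE 0.09 each).

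Genes of protein folding had calls on both sides. In the list of endoplasmic reticulum stress, 4 of 21 genes were higher (19%, against 6.83% of all genes) and 3 lower (14.3%, against 5.96%). Dnajc3, an inhibitor of the kinase PERK, fell by 0.42 (SE 0.05, adjusted p = 0.00352), while Dnajb9, a cochaperone of BiP, rose by 0.29 and Asns, which makes asparagine, rose by 0.27. Pdia3, a disulphide isomerase, fell by 0.28. Of these, only Dnajc3 was called whichever array was left out. Dnajb9 lost its call without either control array of 6 weeks, Asns without either of them or curcumin replicate 1 of 6 weeks, and Pdia3 without 5 of the 8 arrays, with adjusted p up to 0.0942. The 4 increases became 0 without control replicate 1 of 6 weeks, 1 without curcumin replicate 1 or control replicate 2 of 6 weeks, and 2 without curcumin replicate 2 of either duration or control replicate 1 of 12 weeks. The 3 decreases became 1 without replicate 2 of either diet at 6 weeks, curcumin replicate 2 or control replicate 1 of 12 weeks. Among 17 cytosolic and mitochondrial chaperones, 2 were lower (11.8%, against 5.96% of all genes), Hspd1 (HSP60) and Fkbp4, by 0.27 and 0.29. None was higher, with 4 of the 17 at an unadjusted p under 0.05 in either direction by limma.

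Several peptides of interneurons were higher at 12 weeks. Of 29 neuropeptide, receptor and related genes, 5 were higher (17.2%, against 6.83% of all genes) and none was lower, with a median of 0.03. Without either control array of 12 weeks 1 gene of the list was lower. Sst (somatostatin; 1.28 kb long) read 8.83, 8.95, 9.01 and 8.95 at 12 weeks, against 8.44, 8.42, 8.41 and 8.56 at 6 weeks. It rose by 0.48 (SE 0.05, adjusted p = 0.00186), and the groups did not overlap. Cck (cholecystokinin) read 10.12, 9.94, 10.15 and 10.16 at 12 weeks, against 9.60, 9.57, 9.58 and 9.64 at 6 weeks, and rose by 0.49 (SE 0.05, adjusted p = 0.00193). Npy (neuropeptide Y) read 8.71, 8.64, 8.76 and 8.46 at 12 weeks, against 8.17, 8.17, 8.21 and 8.38 at 6 weeks, and rose by 0.41 (SE 0.08, adjusted p = 0.0133). Nptx2, a secreted pentraxin that gathers glutamate receptors, rose by 0.29 (adjusted p = 0.0242). It lost its call without curcumin replicate 1 of 6 weeks or control replicate 1 of 12 weeks (highest adjusted p = 0.0591), and in each of these fits 3 genes of the list were called higher. Nts (neurotensin), named here after its values were seen, had the lowest shift of the list, -0.83, and did not pass (adjusted p = 0.0677).

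The interneuron list had 4 of 18 genes higher (22.2%, against 6.83% of all genes), Sst, Cck, Npy and Tac3, all of which are also on the neuropeptide list. In it 1 gene was lower (5.56%, near the 5.96% of all genes), Reln (reelin), which fell by 0.37 (adjusted p = 0.0172 by limma). Reln was not called without either control array of 6 weeks (adjusted p up to 0.0608). The median shift of the list was 0.03. The promoter of Sst is shown because somatostatin is the gene in which the CRE was first studied and because Sst had the largest moderated t of the peptides. Capitals mark the CRE, which begins 3 bases into the annotated transcript here (chr11:90461508-90461595, plus strand).
Sst: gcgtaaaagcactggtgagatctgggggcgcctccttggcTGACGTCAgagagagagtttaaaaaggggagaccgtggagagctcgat
Of 23 promoters of the neuropeptide list in the table, 5 held TGACGTCA on either strand (Cartpt, Scg2, Sst, Sstr2 and Vgf), against 1.83% of all promoters, and only Sst of these was called. The shifts of Scg2 and Vgf were -0.23 and -0.00.

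The called markers of principal neurons were all higher at 12 weeks. Of 16 genes of granule and pyramidal neurons, 2 were higher (12.5%, against 6.83% of all genes), Neurod1, a transcription factor of granule cells, and Nptx2. None was lower, and without curcumin replicate 1 of 6 weeks 1 was higher and 1 lower. Neurod1 read 7.71, 7.97, 7.65 and 7.74 at 12 weeks, against 7.36, 7.35, 7.35 and 7.42 at 6 weeks, a shift of 0.40 (SE 0.07, adjusted p = 0.00878). Bok and Lhx9, the next of the list by moderated t, had shifts of 0.25 and 0.26 and did not pass. Prox1, which the granule cell check above used, had a shift of -0.35 (adjusted p = 0.0881). None of 21 genes of cell division was called at an adjusted p under 0.05 in limma, with 2 at an unadjusted p under 0.05 and a median of 0.05. Without control replicate 1 of 12 weeks 1 was called higher.

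Several scaffolds on both sides of the synapse were lower at 12 weeks. Among 22 postsynaptic genes, 4 were lower (18.2%, against 5.96% of all genes) and none was higher. Shank1, a scaffold of the postsynaptic density, read 9.41, 9.31, 9.35 and 9.31 at 12 weeks, against 9.83, 9.82, 9.75 and 9.89 at 6 weeks. It fell by 0.47 (SE 0.05, adjusted p = 0.00153). Its relatives Shank3 and Shank2 fell by 0.30 and 0.26, and Grin1, the obligate subunit of NMDA receptors, fell by 0.22 (adjusted p = 0.0146). Grin1 lost its call without curcumin replicate 1 or either control array of 6 weeks, and Shank2 without 5 of the 8 arrays (highest adjusted p = 0.0544 and 0.0785). The count of the list was 2 without curcumin replicate 1 or without control replicate 2 of 6 weeks.

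Of 23 genes of vesicle release, 4 were lower (17.4%, against 5.96% of all genes) and 2 were higher (8.70%, near the 6.83% of all genes). Rims1, a scaffold of the active zone, read 9.32, 9.12, 9.20 and 9.34 at 12 weeks, against 9.70, 9.65, 9.68 and 9.70 at 6 weeks. It fell by 0.44 (SE 0.06, adjusted p = 0.0033). Pclo (piccolo), another such scaffold, fell by 0.26 (SE 0.05), and Unc13a, which primes vesicles, by 0.27. Syp (synaptophysin), an abundant protein of the vesicle itself, rose by 0.23 (adjusted p = 0.023). Unc13a lost its call without curcumin replicate 1 or either control array of 6 weeks (highest adjusted p = 0.0594), and in each of these fits 2 genes of the list were lower. Syp lost its call without 5 of the 8 arrays (highest adjusted p = 0.0801), and no increase was called without curcumin replicate 2 or either control array of 6 weeks or control replicate 1 of 12 weeks, and 1 was without curcumin replicate 1 of either duration or curcumin replicate 2 of 12 weeks. Genes of both lists are long, with median spans of 193 kb for the postsynaptic list and 55.2 kb for the vesicle list, against 18.0 kb over all genes, and the part of length was not tested. In the cortex the shift of Shank1 was -0.06 (SE 0.06) and that of Rims1 was -0.01 (SE 0.06), but the difference between the tissues did not pass for either (adjusted p = 0.193 and 0.191).

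Immediate early genes, which neurons switch on within minutes of firing, had shares of calls near those of all genes. Of 24, 2 were higher and 2 lower (8.33% each, against 6.83% and 5.96% of all genes). Beside Nr4a2 and Nptx2, Arc fell by 0.34 (adjusted p = 0.0458) and Trib1 rose by 0.31 (adjusted p = 0.0135). Arc overlapped between the durations and lost its call without any array other than curcumin replicate 1 of 12 weeks, and Trib1 lost its call without control replicate 2 of 6 weeks (adjusted p = 0.0527). The 2 increases became 1 without curcumin replicate 1 or control replicate 2 of 6 weeks or control replicate 1 of 12 weeks. Fos, named after its values were seen, lay between 6.25 and 6.66 at 12 weeks, against 6.25 to 6.63 at 6 weeks. Of 18 genes that corticosteroids regulate, Tsc22d3 (GILZ) rose by 0.27 (SE 0.04, adjusted p = 0.00704), Ddit4 by 0.26 (SE 0.04, adjusted p = 0.00933) and Klf9 by 0.24, and none was lower (16.7% higher, against 6.83% of all genes). Zbtb16, next in the list by moderated t, had a shift of -0.24 and did not pass. In the list 11 shifts were positive and 7 negative, the lowest at -0.28. Klf9 lost its call without either curcumin array or control replicate 1 of 6 weeks (highest adjusted p = 0.0669). Without either curcumin array of 6 weeks 1 gene of the list was lower. The same count was found after quantile normalization, after scaling to the brighter clusters, without the dimmest clusters and with a variance trend. Fkbp5, a further gene of the list named after its values were seen, had a shift of 0.08 and did not pass.

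Genes of the circadian clock were called in both directions. In the clock, BMAL1 and CLOCK drive the genes of their inhibitors, among them the cryptochromes, and of the output factor DBP. Of 15 genes, 2 were higher and 2 lower (13.3% each, against 6.83% and 5.96% of all genes). Dbp read 9.38, 9.44, 9.14 and 9.14 at 12 weeks, against 8.57, 8.84, 8.91 and 8.75 at 6 weeks, and rose by 0.51 (SE 0.10, adjusted p = 0.0125). Cry2 read 9.34, 9.24, 9.03 and 9.27 at 12 weeks, against 8.89, 8.89, 8.89 and 8.80 at 6 weeks, and rose by 0.35 (SE 0.06, adjusted p = 0.00928). Bmal1 read 7.36, 7.15, 7.14 and 7.32 at 12 weeks, against 7.61, 7.44, 7.53 and 7.60 at 6 weeks, and fell by 0.31 (SE 0.07, adjusted p = 0.025). Nfil3, a repressor that competes with DBP, fell by 0.25 (adjusted p = 0.0344). The increases were called whichever array was left out, whereas Bmal1 lost its call without 5 arrays and Nfil3 without 6 (highest adjusted p = 0.0846 and 0.101). Neither decrease was called without curcumin replicate 1 or either control array of 6 weeks or control replicate 1 of 12 weeks, and 1 was without any other array of 12 weeks.

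The promoter of Bmal1 is shown because its AGGTCA motif, which the receptors ROR and REV-ERB bind in the clock, lies at position -15 from the transcript start that the promoter table uses, inside the annotated gene (chr1:176766273-176766358, plus strand; motif in capitals).
Bmal1: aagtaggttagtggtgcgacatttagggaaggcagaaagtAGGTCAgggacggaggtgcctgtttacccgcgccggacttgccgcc
Promoters were in the table for 14 of the 15 clock genes. AGGTCA on either strand was in 2 of them, Bmal1 and Usp2, against 16.2% of all promoters, and the E-box CACGTG, the site of BMAL1 and CLOCK, was in 3 (Bhlhe40, Bhlhe41 and Tef), against 6.42% of all. None of these 3 was called.

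**Figure D4:**
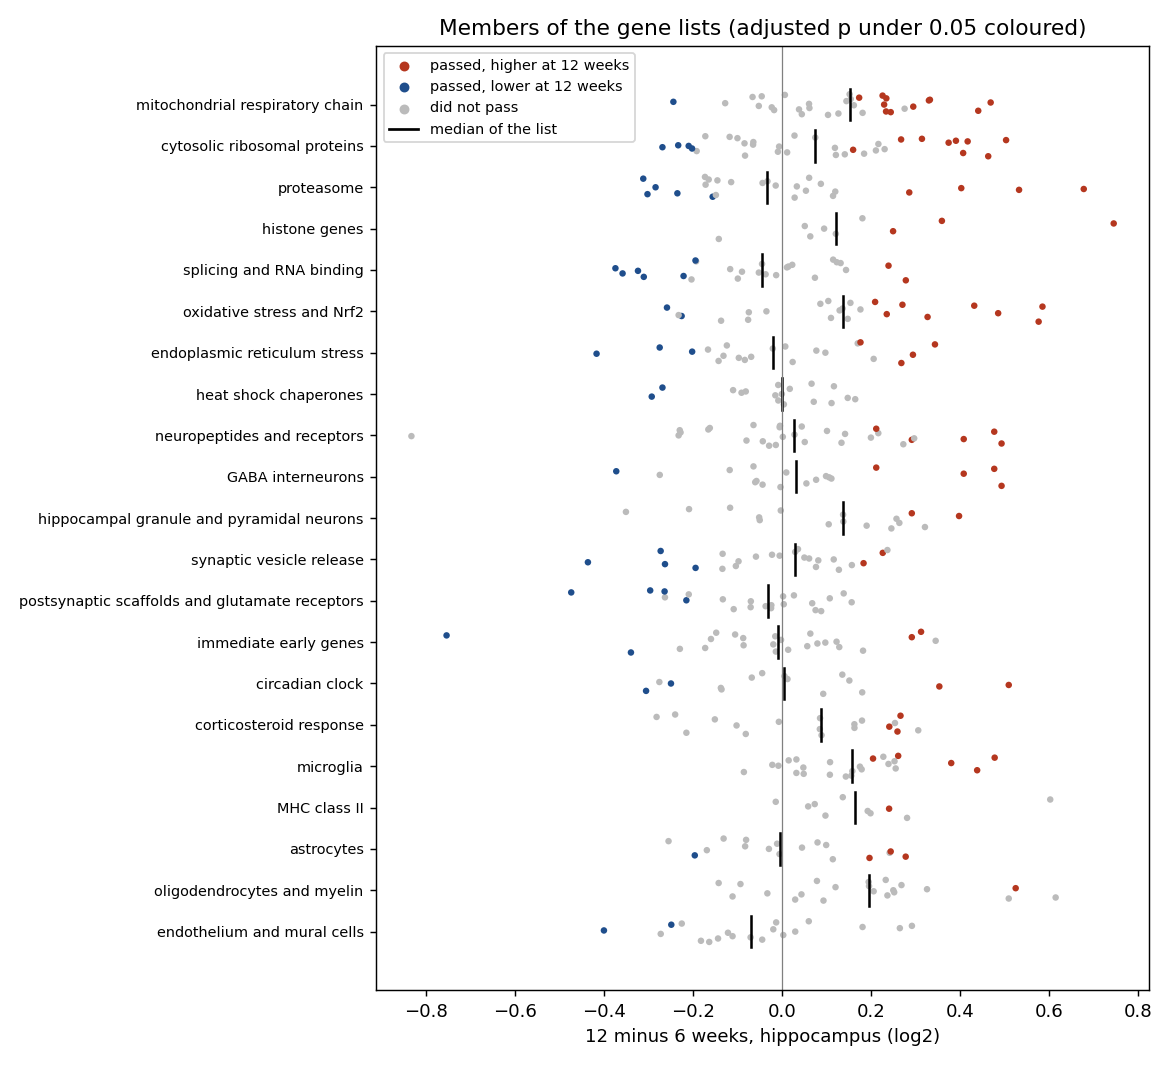
Shift of every measured member of 21 gene lists in the hippocampus, 12 minus 6 weeks on the log2 scale, with each point a gene, coloured where it passed an adjusted p under 0.05, and a black bar at the median. Respiratory chain genes lie mostly to the right (median 0.15), splicing genes slightly to the left (median -0.05), and proteasome genes spread from -0.31 to 0.68.

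Microglial genes leaned higher. Of 24 markers of microglia, the resident macrophages of the brain, 5 were higher (20.8%, against 6.83% of all genes) and none lower, and 21 had positive shifts. Tmem119, a surface protein specific to microglia in the brain, read 7.48, 7.51, 7.41 and 7.73 at 12 weeks, against 7.01, 6.99, 7.10 and 7.10 at 6 weeks. It rose by 0.48 (SE 0.07, adjusted p = 0.00436). Cx3cr1, the receptor for a chemokine of neurons, read 7.89, 7.70, 7.61 and 7.84 at 12 weeks, against 7.26, 7.23, 7.34 and 7.44 at 6 weeks, and rose by 0.44 (SE 0.08, adjusted p = 0.00933). Laptm5, a lysosomal protein, rose by 0.38 (SE 0.05, adjusted p = 0.00456), and Spi1 (PU.1), the transcription factor of the lineage, by 0.20 (adjusted p = 0.0322). The first 3 kept their calls whichever array was left out, and 3 was also the count with a variance trend and without any array of 6 weeks or without curcumin replicate 1 of 12 weeks. Spi1 lost its call without any array other than control replicate 2 of 12 weeks (highest adjusted p = 0.102). The mean over the list lay between 6.77 and 6.93 at 12 weeks, against 6.63 to 6.75 at 6 weeks. The median shift of the list was 0.16 in the hippocampus and -0.03 in the cortex, but the difference between the tissues did not pass for any of its genes.

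The other glial and vascular lists described here held fewer called genes, and each of these lists was also shorter. Of 10 class II genes, which present antigens, 1 was higher (10%, against 6.83% of all genes) and 9 had positive shifts, with a median of 0.16. The called gene, RT1-DMa, rose by 0.24 (adjusted p = 0.0399). It lost its call without 7 of the 8 arrays when left out singly, with adjusted p up to 0.107. No gene of the list was called without curcumin replicate 1 or either control array of 6 weeks, or without either curcumin array or control replicate 2 of 12 weeks. RT1-Db1, RT1-Bb and RT1-Da had shifts of 0.14, 0.19 and 0.60, the last being the largest of the list, and did not pass. Of 17 astrocyte genes, 3 were higher (17.6%, against 6.83% of all genes) and 1 lower (5.88%, near the 5.96% of all genes). The gap junction gene Gja1 rose by 0.24 (SE 0.04, adjusted p = 0.0113), the water channel Aqp4 by 0.28 and Aldoc by 0.20, and Atp1b2 fell by 0.20. Gja1 alone among them kept its call whichever array was left out, and 1 astrocyte gene was higher without control replicate 2 of 6 weeks. None was lower without curcumin replicate 1 or either control array of 6 weeks, or without either curcumin array or control replicate 1 of 12 weeks. Aldoc lost its call without any 6-week array, Aqp4 without control replicate 2 of 6 weeks and Atp1b2 without 7 of the 8 arrays (highest adjusted p = 0.0624, 0.0537 and 0.102).

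Of 21 myelin genes, only Mbp was called (4.76%, under the 6.83% of all genes called higher), with a shift of 0.52 (SE 0.14, adjusted p = 0.0452). Its values were 10.89, 11.04, 10.50 and 11.13 at 12 weeks, against 10.38, 10.41, 10.55 and 10.12 at 6 weeks, so the groups overlapped. Mbp lost its call without 6 of the 8 arrays (highest adjusted p = 0.131), but 5 genes of the list were higher without control replicate 1 of 12 weeks and 2 without control replicate 1 of 6 weeks. Without any of the other 6 arrays, none was. Cnp and Cldn11 of the same list had shifts of 0.61 and 0.51 and did not pass (adjusted p = 0.0527 and 0.0866). The list's median was 0.20 in the hippocampus and -0.32 in the cortex, but the difference between the tissues did not pass for any gene of the list. Of 19 genes of vessels, 2 were lower (10.5%, against 5.96% of all genes) and none was higher. Myh11 and Tagln of smooth muscle fell by 0.40 and 0.25 (adjusted p = 0.00465 and 0.0481). Tagln lost its call without any 6-week array or replicate 2 of either diet at 12 weeks (highest adjusted p = 0.135), which left 1 lower gene in the list, and without curcumin replicate 2 of 12 weeks 1 was higher. Among genes known to rise with age in glia, none of 16 was called (1 at an unadjusted p under 0.05 in limma, and 1 called without control replicate 2 of 6 weeks). Gfap, named after its values were seen, had a shift of 0.24 (adjusted p = 0.338).

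The shift was next set side by side for the diets, which share no arrays. On curcumin chow alone 243 clusters were higher at 12 weeks (0.889%) and 96 lower (0.351%), and on control chow alone 639 were higher (2.34%) and 344 lower (1.26%). Of the 243 called higher on curcumin, 241 had a positive shift on control chow, against 53.4% of all clusters, and of the 96 called lower 94 had a negative shift, against 46.6%. Of the 639 called higher on control chow, 621 had a positive shift on curcumin, against 54.4% of all clusters, and of the 344 called lower 323 had a negative one, against 45.6%. Across the 27342 clusters, the shifts on the diets correlated at 0.64 (Pearson's r), a description, since clusters are not independent. These counts are fragile: without any 1 of the 4 arrays of curcumin, 1 cluster was called higher there and at most 1 lower. On control chow, 1 was called higher and 0 lower without replicate 1 of 6 weeks, 49 and 6 without replicate 2 of 6 weeks, 603 and 175 without replicate 1 of 12 weeks, and 6 and 2 without replicate 2 of 12 weeks.

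**Figure D5:**
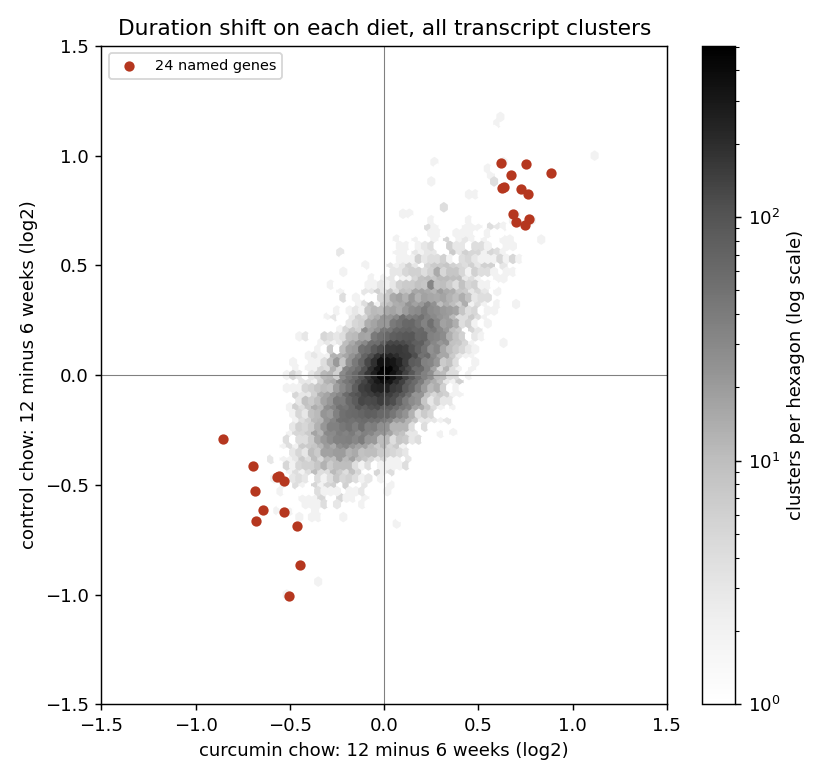
Shift between 12 and 6 weeks of each transcript cluster on curcumin chow (x) and on control chow (y), on the log2 scale, shaded by the number of clusters, with the 24 named genes in red. Clusters lie along the rising diagonal (Pearson's r = 0.64), the named genes lie in the upper right and lower left, and 10 clusters fall outside the axes.

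A difference between the diets in the shift was not called for any cluster (0%), with 1165 clusters at an unadjusted p under 0.05. The 3 genes with the largest moderated t did not pass. Wfs1, a marker of CA1 pyramidal neurons, had a shift of 0.28 on curcumin (SE 0.09) and -0.69 on control chow (SE 0.09), with an adjusted p of 0.839 for the difference. Its values were 9.85 and 9.88 on curcumin and 8.79 and 8.84 on control chow at 12 weeks, against 9.70, 9.48, 9.57 and 9.44 at 6 weeks, so that the 12-week control arrays were low. Npy2r, a receptor of neuropeptide Y, had shifts of -0.48 and 0.87 (SE 0.13 each), and the potassium channel Kcnk2 had shifts of 0.32 and -0.27 (SE 0.06 each), on curcumin and on control chow. The test without curcumin replicate 1 of 6 weeks called 1 cluster. With 2 arrays a group, a p that misses the threshold does not show that the diets acted alike.

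Cortex arrays of the same groups gave a shift of the same direction for most of the called clusters. Of the 1914 clusters higher in the hippocampus, 1776 had a positive cortical shift (92.8%, against 46.2% of all clusters). Of the 1442 lower ones, 1283 had a negative cortical shift (89.0%, against 53.8%). Median shifts of the called clusters were 0.31 in the hippocampus and 0.22 in the cortex for the higher, and -0.28 and -0.17 for the lower. Across all clusters the shifts correlated at 0.63, a description, since rats of the same groups gave both tissues. Ndufa3 shifted by 0.86 in both tissues, Ndufb6 by 0.79 in the hippocampus and 0.77 in the cortex, Sst by 0.48 in both and Bccip by -0.67 and -0.65. Nr4a2, Vwc2l and Satb1 had cortical shifts of 0.19 (SE 0.18), 0.20 (SE 0.17) and 0.14 (SE 0.15), opposite in sign to those in the hippocampus, but their differences between the tissues did not pass (adjusted p = 0.282, 0.301 and 0.344).

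Between the tissues, 1 of 27342 clusters differed in shift (0.00366%), with 2292 at an unadjusted p under 0.05. It was cluster 10803049, which carries no gene symbol. It lay between 4.90 and 5.04 in the hippocampus at 12 weeks, against 4.79 to 5.08 at 6 weeks, and averaged 6.26 in the cortex at 12 weeks and 4.87 at 6 weeks. The difference, hippocampal minus cortical shift, was -1.32 (SE 0.09, adjusted p = 0.000307). The named genes with the largest moderated t were the noncoding RNA Meg3, the active zone gene Rimbp2 and Slc17a7, the vesicular glutamate transporter, and none passed. Meg3 fell by 0.39 in the hippocampus (SE 0.05, adjusted p = 0.00296), where it read 10.72, 10.81, 10.88 and 10.91 at 12 weeks, against 11.24, 11.20, 11.22 and 11.20 at 6 weeks. Its cortical shift was 0.06 (SE 0.04) and the difference had an adjusted p of 0.141. Slc17a7 had a hippocampal shift of 0.08 (SE 0.05) and a cortical shift of 0.61 (SE 0.06; adjusted p = 0.149 for the difference). Rimbp2 had shifts of -0.16 (SE 0.11) in the hippocampus and 0.35 (SE 0.05) in the cortex (adjusted p = 0.149 for the difference). Without control replicate 1 of the 6-week cortex 14 clusters differed between the tissues, without its control replicate 2 or curcumin replicate 1 there were 2, and without curcumin replicate 1 of the 6-week hippocampus there were 3.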

How the data were processed

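Log2 values of 27342 transcript clusters on 16 Affymetrix arrays were used as deposited, with 0 missing values; the authors made them with Expression Console and RMA normalization, per the study's methods and the submitters' processing notes, with versions not given in the sources used here. The array is a rat exon array by the methods, but its cluster identifiers matched a rat gene array, which was not settled. Probe-level signals were not analysed here, and the 4 arrays per duration limit the precision.

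Of the clusters, 15097 had exactly 1 gene symbol, 323 had several and 11922 had none. Symbols were updated by gene ID in a RefSeq table of GRCr8 (15067 found), which also gave coordinates and spans. The brightest cluster over the 16 arrays stood for a gene.

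Duration was fitted with limma 3.58.1 in R 4.3.3 (diet and duration as terms, 8 hippocampal arrays, 5 residual degrees of freedom), with calls at a Benjamini-Hochberg adjusted p under 0.05 over the whole table. Shifts within a diet and their difference came from group means of the 8 arrays, and the difference between tissues from group means of the 16 arrays. Named are the 12 largest increases and decreases among called genes with groups that do not overlap, the 2 to 4 members of each described list with the largest moderated t, and the 3 largest of each difference; other names are marked or come from counts of called members. The comparison, members and 38 gene lists were chosen with earlier results of these data known. Steps were tested on simulated data. Alternatives were other designs, scalings and filters, variance models, array weights, other call rules and leaving out arrays. Replicate numbers were not taken to pair the arrays. Figures were drawn with matplotlib 3.10.9.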

Additional observations from a re-analysis of the deposited data

Results flagged for a closer look

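Cluster 10803049 differed between the tissues in its shift with duration by -1.32, as described above, and the difference was called under every alternative in which the cluster was tested. In the set of 109 genes followed through the fits, 8 of 218 groups of 4 arrays held an array set apart from the other 3 by Dixon's test, which chance gives in about 1 in 20 groups. Control replicate 1 of 6 weeks read 8.41 for Atp6v0e2 (others 8.26 to 8.29) and 9.36 for Nr4a2 (others 8.84 to 8.92). Control replicate 2 of 6 weeks read 8.04 for Dnajc3 (others 7.85 to 7.88), 7.51 for Shank2 (others 7.29 to 7.31) and 8.80 for Cry2 (others 8.89). Curcumin replicate 2 of 12 weeks read 9.08 for Hist1h2an (others 8.96 to 8.97) and 9.41 for H2az1 (others 9.58 to 9.61). Curcumin replicate 1 of 6 weeks read 6.69 for Slc6a13, a transporter gene of the meningeal list (others 6.39 to 6.42).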

How the results depend on the processing

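Leaving out single arrays gave 995 to 1702 clusters higher and 600 to 1469 lower at 12 weeks, against 1914 and 1442 with all 8, with the lowest counts without control replicate 2 of 6 weeks. The counts were also under the main ones by over 1.5 times without curcumin replicate 1 (1151 and 658), curcumin replicate 2 (1127 and 823) and control replicate 1 (1156 and 821) of 6 weeks. Without both 6-week arrays with the highest choroid plexus markers they were 132 and 27, and without the other 2 6-week arrays 249 and 129, alternatives chosen after seeing the data that leave 6 arrays. Of the 87 called genes in the set of 109, 17 and 28 were called in these fits. Of the 41 counts of called genes above 0 over the gene lists, 37 were 0 in the first of these fits. A 1.5-fold rule with no test gave 158 and 57, and an adjusted p under 0.01 gave 693 and 400. Within the diets, on curcumin the counts were 382 and 238 in a fit of all 16 arrays and 409 and 304 after quantile normalization, with 161 lower when the dimmest clusters were left out, against 243 and 96. On control chow quantile normalization gave 616 lower, against 344. Leaving out single arrays gave 1 higher and 0 to 1 lower on curcumin, 1 to 603 higher and 0 to 175 lower on control chow, and 0 to 1 clusters for the difference between diets. In these fits a lone array is assumed to vary like the others. The difference between tissues was called for 6 clusters after quantile normalization, 0 with the dimmest left out and 2 with a variance trend, and for 1 to 14 when single arrays were left out. The cause of these changes was not tested, and some of these fits also hold fewer arrays or clusters. Over the 76 counts of the gene lists, between 6 (array weights, or the replicate block) and 17 (all 16 arrays) moved by over 1.5 times under the other designs, scalings and filters, each by 1 to 4 genes. Quantile normalization moved 13, of which 10 were higher counts, among them the proteasome and ribosomal decreases (9 and 7, against 5 and 4).

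The replicate number as a block, an added term for the pairing of numbers, gave 1579 higher and 1130 lower clusters, 0 for the difference between diets and 1 for that between tissues. The differences between replicates 1 and 2 correlated between hippocampal groups at -0.43 to 0.27, over 0.1 in 1 of 6 pairs of groups. Whether arrays of the same number share more than the number was not tested. Of the 87 called genes in the set of 109, Magoh, Nfil3, Mbp and Tagln were not called under the block. The fit of all 16 arrays did not call 12 of the 87. These were Reln, Neurod1, Shank3, Arc, Tsc22d3, Spi1, RT1-DMa, Aqp4, Atp1b2, Mbp, Myh11 and Tagln. The other designs, scalings and filters that kept all 8 arrays lost at most 4 each.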

Other observations

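The largest shifts of all called clusters were in clusters without a gene symbol, named here by number. Cluster 10708691 read 9.38, 9.30, 9.23 and 9.34 at 12 weeks, against 7.51, 7.38, 7.14 and 7.26 at 6 weeks, each with the curcumin arrays first, a shift of 1.99 (SE 0.06, adjusted p = 1.27e-05 by limma). Its cortical shift was 2.16 (SE 0.09). Cluster 10726672 had shifts of 1.35 (SE 0.11) in the hippocampus and 1.30 (SE 0.09) in the cortex. In the other direction, cluster 10930555 had shifts of -1.46 (SE 0.21) and -1.61 (SE 0.23), and cluster 10702697 of -0.97 (SE 0.14) and -1.17 (SE 0.17). None of these 4 clusters overlapped between the durations in the hippocampus.

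Of 17 genes of sterol synthesis, 1 was lower and 1 higher (5.88% each, near the 5.96% and 6.83% of all genes). Sqle (squalene epoxidase) fell by 0.27 (SE 0.05, adjusted p = 0.00873 by limma) and Dhcr7, of the last steps of cholesterol synthesis, rose by 0.24 (SE 0.06, adjusted p = 0.039). No gene of the list was higher without curcumin replicate 1 or either control array of 6 weeks, or without curcumin replicate 1 or control replicate 2 of 12 weeks. The list's median shift was 0.12.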
